A study of Mus musculus with 3 samples.

Results

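Serpins are proteins of a common fold, and most of them inhibit serine or cysteine proteases by offering an exposed loop as bait and trapping the protease that cuts it. They are sorted into lettered clades. Clade A holds secreted plasma proteins related to antitrypsin, which are made mainly by the liver, and clade B holds proteins that mostly stay inside the cell and guard it against leaked granzymes, elastase-like proteases and cathepsins. The smaller clades hold antithrombin (C), heparin cofactor (D), inhibitors of plasminogen activators (E), pigment epithelium-derived factor and antiplasmin (F), the inhibitor of complement C1 (G), the collagen chaperone HSP47 (H) and neuroserpin (I).

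The levels of 40 serpin genes, of 18193 genes measured, were compared in NIH3T3 cells, an immortalized line of mouse embryonic fibroblasts, overexpressing mtYAP or wild-type YAP and in control cells. A gene was taken where at least 1 probe set names it alone and its symbol is Serpin followed by a clade letter from a to i and a number. YAP is the transcriptional co-activator held in check by the Hippo pathway, and mtYAP carries the substitution S112A, which removes a serine that the LATS kinases phosphorylate. Each condition was read by 1 Affymetrix GeneChip array, from cells in medium with 10% calf serum. The cells of both overexpressing lines were infected with retrovirus and selected with puromycin, and the surviving cells were used. The control is labelled untransduced, although the study's methods also describe cells infected with virus of the empty vector and selected in the same way. If the label holds, infection and selection cannot be told apart from YAP in any difference from control, and the arrays do not settle which control it was.

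Clade A had 14 of the genes, clade B 18, clades F and I 2 each, and clades C, D, G and H 1 each. Genes of clade E were not analysed here. All levels are log2 values from robust multiarray analysis, so that a difference of 1 is 2-fold, and the level of a gene is the mean of its probe sets. Of the 40 genes, 28 were read by 1 probe set and 12 by several. A level of 6 on at least 1 array was taken as clearly measured. With 1 array per condition there is no spread between replicates, no value has an error, and no test was run. Both differences from control use the same control array.

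The share of probe sets at a level of 6 or more was 33.0% in mtYAP, 33.9% in YAP and 34% in control. All 12 fibroblast markers looked up had a level of at least 7.07 on every array, whereas the markers of epithelial cells (9 genes), hepatocytes (9), leukocytes (8) and embryonic stem cells (8) stayed at or below 5.34. The last were included because embryonic stem cells are mentioned in free text given with the control. Among the fibroblast markers, 4 of 12 were below control by more than 1 in mtYAP and 1 of 12 in YAP, where 4.06% and 1.26% of all genes were, and 586 and 164 of the 7129 genes that reached a level of 6. The level of Yap1, the mean of 2 probe sets, was 7.89 in mtYAP, 8.06 in YAP and 8.57 in control, so it was not above control in either overexpressing array. The viruses carried the coding sequence of mouse YAP with a tag, and whether the probe sets lie within it was not looked up. The arrays therefore did not check the labels, and every direction given here rests on them. Apart from the arrays, the study examined YAP protein in control, YAP and mtYAP cells by western blot and immunostaining.

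Most serpin genes were near the background on every array. A level of 6 on at least 1 array was reached by 7 of the 40, whereas 39.2% of all genes reached it. The 7 were Serpinb1a, Serpinb6a, Serpinb6e, Serpinb9, Serpinb9b, Serpinf1 and Serpinh1. The other 33 genes, all 14 of clade A and 13 of clade B among them, stayed below 6 on all 3 arrays. Just inside the limit were Serpinb1a with a highest level of 6.14 and Serpinb6e with 6.25, and just outside it were Serpinb8 with 5.565 and Serpinf2 with 5.54. Serpini1, among the 33 by its mean, had a probe set that read 6.72 in mtYAP. With the brightest probe set of each gene in place of the mean, 8 genes reached 6.

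In mtYAP, 6 of the 40 genes were above control by more than 1 and 1 was below it by more than 1, where 3.77% and 4.06% of all genes were. In YAP, 8 were above and 1 was below, where 1.36% and 1.26% of all genes were. The 6 genes above in mtYAP were also among the 8 in YAP. Of the 8, 7 belonged to clade B and 1 to clade I. The median difference over the 40 genes was 0.085 in mtYAP and 0.06 in YAP, and that over all genes was 0.02 and −0.003. The 33 genes below 6 on all arrays set this median. Over the 7 genes that reached 6 it was 0.26 in mtYAP and 1.15 in YAP. This is a description only, since Serpinb1a, Serpinb6e, Serpinb9 and Serpinb9b reached 6 only on arrays where they were above control. Counts of this family do not stand for so many separate observations, since clade B paralogues are similar in sequence and probe sets can read several of them.

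**Figure D1:**
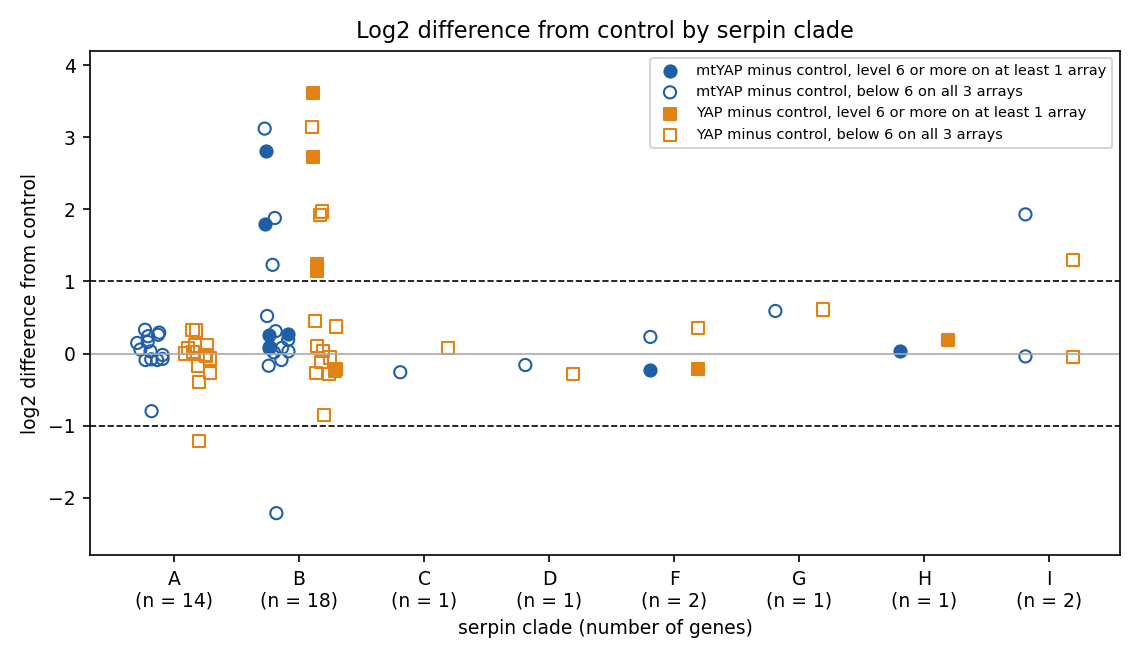
Log2 difference from control (vertical axis) of each serpin gene by clade (horizontal axis), for mtYAP (blue circles) and YAP (orange squares). Filled symbols reached a level of 6 on at least 1 array, open symbols did not, dashed lines mark a 2-fold difference and the sideways spread has no meaning. Apart from 1 gene of clade I, the symbols above the upper line belong to clade B.

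The genes of clade B stood furthest from control. Serpinb9b, a mouse paralogue of Serpinb9 that inhibits granzyme M, had a level of 8.42 in mtYAP, 9.22 in YAP and 5.61 in control. It was 7.01-fold above control in mtYAP and 12.2-fold in YAP, with log2 differences of 2.81 and 3.61. The gene was read by 1 probe set. Both lines were clearly measured while control was below 6, so the size of the difference is less certain than its direction. Serpinb9, which protects cells from granzyme B, had a level of 6.01 in mtYAP, 7.18 in YAP and 5.935 in control. YAP stood apart from the other arrays here, 1.245 above control, and mtYAP was at the control level (0.075). Its brighter probe set read 7.93 in mtYAP, 8.92 in YAP and 7.83 in control, so the pattern did not rest on levels near the background.

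Serpinb6a, the mouse counterpart of an inhibitor of cathepsin G and other serine proteases, was the member of clade B that was clearly measured on every array. Its level was 10.83 in mtYAP, 11.72 in YAP and 10.57 in control. It was 1.15 above control in YAP (2.22-fold) and 0.26 in mtYAP. Serpinb6e, a paralogue of Serpinb6a, had a level of 6.25 in mtYAP, 5.74 in YAP and 5.98 in control, which was a difference of 0.27 in mtYAP and −0.24 in YAP. Of these neighbours in the family, the YAP array was therefore highest for Serpinb6a and lowest for Serpinb6e. Serpinb6a and Serpinb6e were each read by 1 probe set, that of Serpinb6e of a kind that can also read related transcripts.

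Serpinb1a, counterpart of the human inhibitor of neutrophil elastase, had a level of 5.21 in mtYAP, 6.14 in YAP and 3.41 in control, with differences of 1.80 and 2.73. Its 2 probe sets did not agree in size. The brighter read 6.70 in mtYAP, 7.76 in YAP and 3.39 in control, a difference of 3.31 and 4.37. The other, of the kind that can read several transcripts, read 3.72 in mtYAP, 4.52 in YAP and 3.43 in control. In both probe sets the order was YAP, then mtYAP, then control.

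The remaining genes above control in clade B lay below 6 on all arrays. Serpinb9g, a paralogue of Serpinb9, had a level of 5.15 in mtYAP, 5.17 in YAP and 2.03 in control, which are differences of 3.12 and 3.14. Serpinb6b, a paralogue of Serpinb6a, had a level of 4.67 in mtYAP, 4.76 in YAP and 2.79 in control. Serpinb1b, a paralogue of Serpinb1a, had a level of 4.23 in mtYAP, 4.92 in YAP and 3.0 in control. Serpinb9g, Serpinb6b and Serpinb1b were each read by 1 probe set. The control array was the lowest of the 3 for each of these genes, and the sizes of the differences are uncertain at such levels.

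Serpinb8, the human counterpart of which inhibits the proprotein convertase furin, went the other way. Its level was 3.35 in mtYAP, 4.71 in YAP and 5.565 in control, a difference of −2.215 in mtYAP and −0.855 in YAP. Its probe sets had the same order, with 3.87 in mtYAP, 4.98 in YAP and 5.58 in control for the brighter and 2.83 in mtYAP, 4.44 in YAP and 5.55 in control for the other. It was the gene below control by more than 1 in mtYAP. The other 9 genes of clade B, Serpinb2 and Serpinb5 (maspin) among them, had levels between 1.92 and 3.19 and lay within −0.29 and 0.52 of control in both lines.

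**Figure D2:**
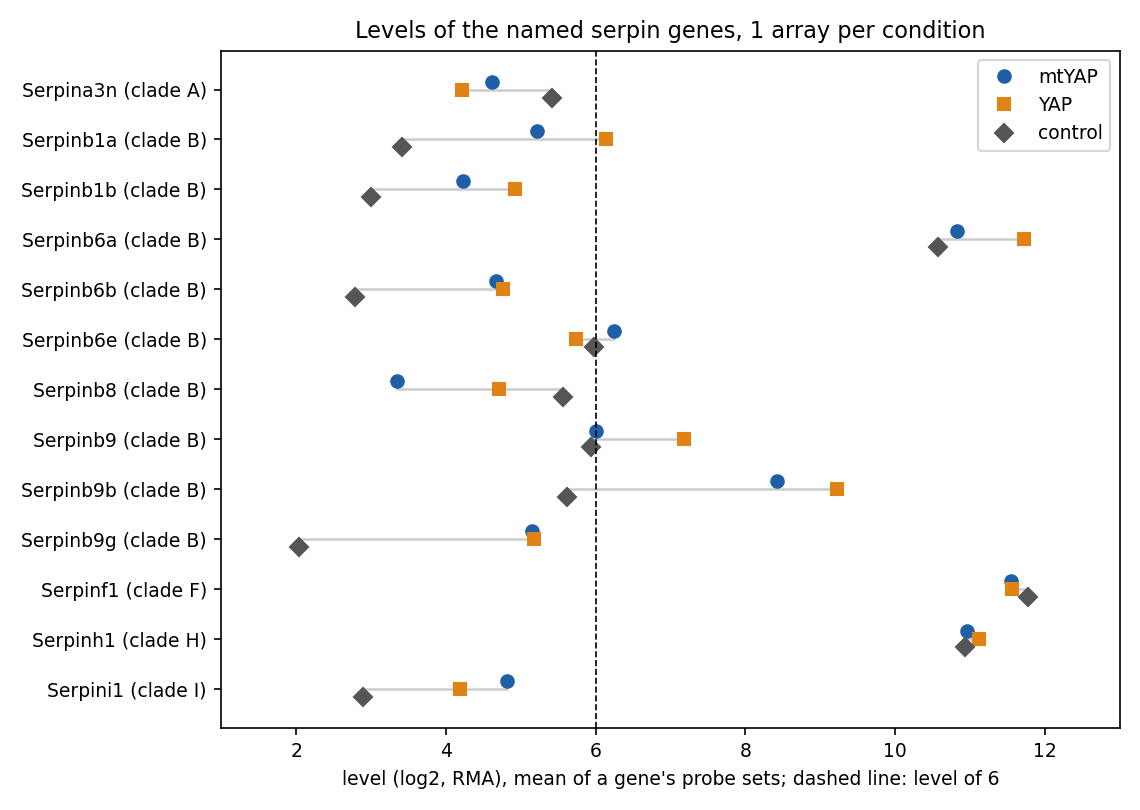
Log2 level (horizontal axis) of the 13 serpin genes that reached a level of 6 on at least 1 array or differed by more than 1 in a comparison (rows), in mtYAP (blue circles), YAP (orange squares) and control (grey diamonds). The dashed line marks a level of 6. Serpinb9b lies right of the line in mtYAP and YAP and left of it in control, whereas Serpinf1 and Serpinh1 are at nearly 1 level on all 3 arrays.

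Clade B genes of the mouse lie in a cluster on chromosome 13 and in another on chromosome 1. RefSeq places 11 of the measured genes in the first and 7 in the second. On chromosome 13, 5 of 11 genes were above control by more than 1 in mtYAP and 7 of 11 in YAP. Of all genes, 3.77% were above in mtYAP and 1.36% in YAP. The medians of the 11 genes were 0.31 and 1.245. On chromosome 1, none of 7 was above in either line, and Serpinb8 was below in mtYAP. Without Serpinb8, the genes of chromosome 1 stayed at or below a level of 2.92. The genes above control on chromosome 13 in YAP were Serpinb1a, Serpinb6b, Serpinb9, Serpinb9b and Serpinb1b, which follow each other in this order among the measured genes, and further on Serpinb9g and Serpinb6a. Between and beside them, Serpinb9c, Serpinb9d, Serpinb6e and Serpinb6c differed from control by −0.24 to 0.375 in YAP and by 0.03 to 0.31 in mtYAP. Of these, Serpinb9c, Serpinb9d and Serpinb6c stayed at or below a level of 3.19, near the background like most genes of chromosome 1.

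The 5 nearest other genes measured before the chromosome 13 cluster, Foxc1 and Wrnip1 among them, lay within −0.505 and 0.325 of control in both lines. Of the 5 after it, none was above control by more than 1, and Tubb2b, a tubulin, was below in mtYAP at −1.07. The transcript 1110046J04Rik, which overlaps Serpinb6a in RefSeq, was above control by 0.77 in mtYAP and 1.41 in YAP. Nqo2, a quinone reductase that also overlaps Serpinb6a, stood at −0.39 and 0.43. No other measured gene lies inside the cluster.

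**Figure D3:**
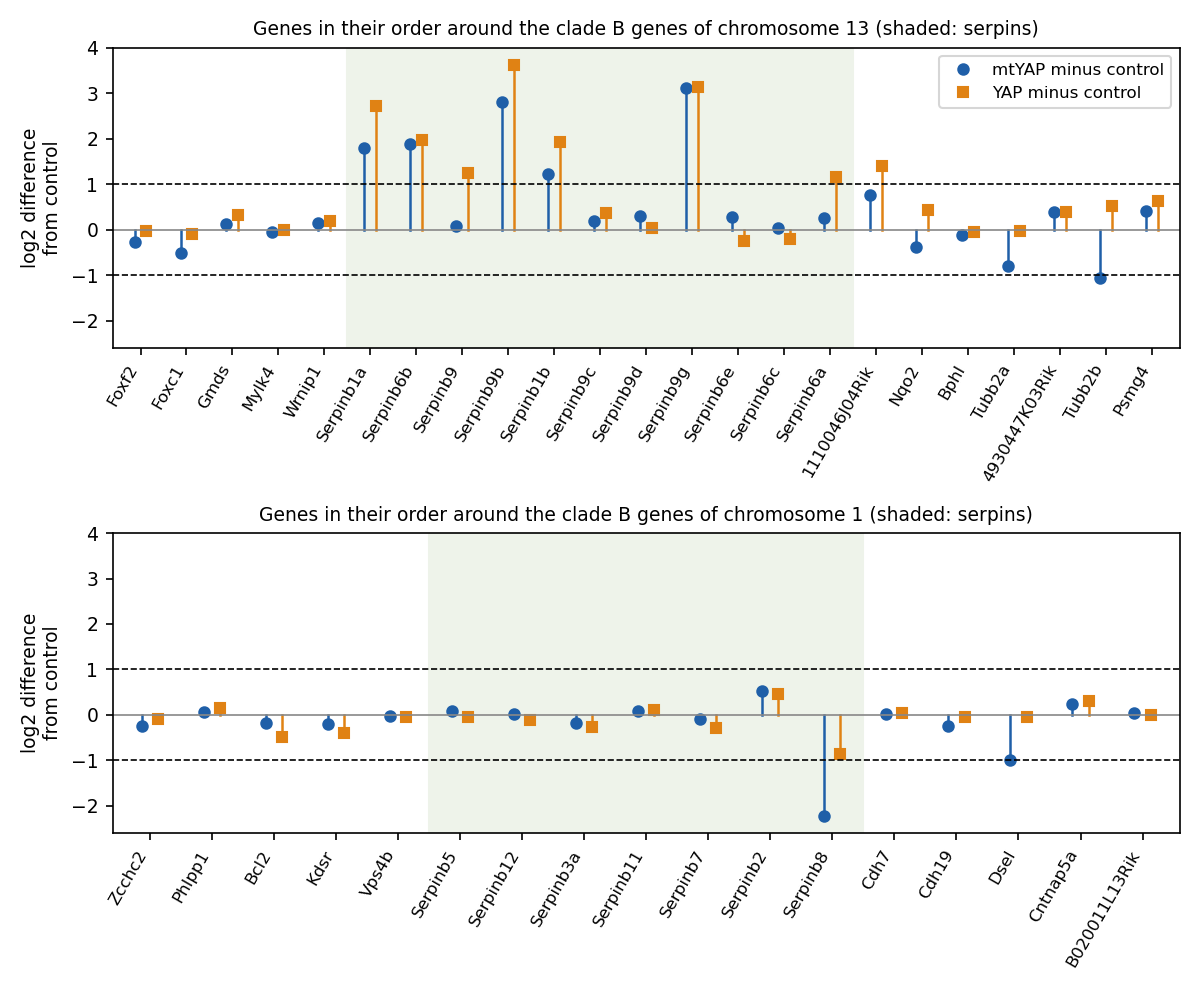
Log2 difference from control (vertical axes) of mtYAP (blue circles) and YAP (orange squares) for the clade B genes of chromosome 13 (upper panel) and chromosome 1 (lower panel), in their order in RefSeq with equal spacing, and for the other measured genes nearest to them. Serpins are shaded and dashed lines mark a 2-fold difference. The high values are within the chromosome 13 cluster, where Serpinb9c and Serpinb9d, and further on Serpinb6e and Serpinb6c, lie nearer to 0 between genes that are above control in YAP.

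Because TEAD factors carry YAP to DNA and AP-1 is often found beside them, the start sites of these genes were searched for the letters GGAATG (TEAD) and TGANTCA (AP-1) on both strands. The windows are those of RefSeq in GRCm38.p6, from 250 bases before to 50 bases after a start, and 34 of the 40 genes have at least 1. GGAATG was in 8 of the 34 genes and in 16.6% of all 27025 genes with a window, and TGANTCA was in 8 of the 34 and in 8.97% of all. On chromosome 13, 3 of the 10 clade B genes with a window held GGAATG and none held TGANTCA. On chromosome 1, 1 of 7 held GGAATG and 6 of 7 held TGANTCA. A match is a description of these letters and not a binding site. The 250 bases before the start are shown for 5 genes, with matches in capitals. Serpinb9g and Serpinb9d are shown as near copies with unlike differences from control, Serpinb9b and Serpinb1b as genes above control in both lines, and Serpinb8 as the gene below it.
Serpinb9g, chr13:33484540-33484789, plus strand: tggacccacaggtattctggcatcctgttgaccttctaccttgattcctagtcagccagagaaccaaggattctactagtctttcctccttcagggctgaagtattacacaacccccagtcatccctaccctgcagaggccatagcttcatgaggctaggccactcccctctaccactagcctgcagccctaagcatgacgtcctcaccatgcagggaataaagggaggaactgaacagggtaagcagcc
Serpinb9d, chr13:33192705-33192954, plus strand: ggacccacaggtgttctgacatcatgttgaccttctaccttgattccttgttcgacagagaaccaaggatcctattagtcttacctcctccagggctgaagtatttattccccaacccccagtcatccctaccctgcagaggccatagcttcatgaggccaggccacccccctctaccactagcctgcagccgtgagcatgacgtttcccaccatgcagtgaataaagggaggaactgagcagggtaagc
Serpinb9b, chr13:33027164-33027413, plus strand: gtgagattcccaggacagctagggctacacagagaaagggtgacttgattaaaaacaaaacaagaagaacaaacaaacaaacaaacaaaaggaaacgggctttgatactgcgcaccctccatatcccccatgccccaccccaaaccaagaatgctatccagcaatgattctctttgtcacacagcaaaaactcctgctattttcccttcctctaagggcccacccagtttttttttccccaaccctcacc
Serpinb1b, chr13:33083853-33084102, plus strand: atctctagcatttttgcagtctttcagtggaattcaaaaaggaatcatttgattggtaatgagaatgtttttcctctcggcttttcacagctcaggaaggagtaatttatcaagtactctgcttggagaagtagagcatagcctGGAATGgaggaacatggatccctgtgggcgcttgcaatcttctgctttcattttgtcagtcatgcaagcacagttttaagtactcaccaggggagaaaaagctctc
Serpinb8, chr1:107589756-107590005, plus strand: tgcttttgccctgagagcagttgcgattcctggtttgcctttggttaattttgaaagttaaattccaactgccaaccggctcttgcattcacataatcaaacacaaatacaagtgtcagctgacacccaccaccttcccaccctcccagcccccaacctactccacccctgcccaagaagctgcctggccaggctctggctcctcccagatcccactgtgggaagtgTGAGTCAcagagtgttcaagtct

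The windows of Serpinb9g and Serpinb9d share 226 of 244 aligned bases, 90.4% of their 250 bases, and the 45 pairs among 10 clade B genes of chromosome 13 have a median of 57.2%. Serpinb9g was 3.12 above control in mtYAP and 3.14 in YAP. Serpinb9d was at 3.19 in mtYAP, 2.92 in YAP and 2.88 in control, so it differed by 0.31 and 0.04. Neither window holds either motif. Serpinb9b and Serpinb9 share 65.2% of the 250 bases. The alignments allow gaps, and for a gene with several windows the first was used. Unrelated windows were not aligned, so whether 57.2% or 65.2% is above the share of unrelated sequences was not tested. In Serpinb1b, GGAATG begins at position −106 from the start. In Serpinb8, a match begins at position −23, and another at position 14, beyond the bases shown.

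The 2 overexpressing lines were also set against each other, which leaves the control array out. No serpin gene was higher in mtYAP than in YAP by more than 1, and 2 were lower, where 0.748% of all genes were higher and 1.42% lower. They were Serpinb8 at −1.36 and Serpinb9 at −1.17, and the brighter probe set of Serpinb9 gave −0.99. Smaller differences in the same direction were those of Serpinb1a at −0.93, Serpinb6a at −0.89, Serpinb9b at −0.80 and Serpinb1b at −0.69. The brighter probe set of Serpinb1a gave −1.06, so which genes pass the limit depends on the averaging of probe sets. Of the 8 serpin genes above control by more than 1 in YAP, 7 had a higher level in YAP than in mtYAP, although for Serpinb6b (−0.09) and Serpinb9g (−0.02) the difference was small. Of all 247 genes above control by more than 1 in YAP, 25.5% had a higher level in YAP. These genes were picked by their YAP level, which favours a higher level in YAP.

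Serpini1 encodes neuroserpin, an inhibitor of tissue plasminogen activator best known from neurons, and was the gene of clade I above control. Its level was 4.82 in mtYAP, 4.18 in YAP and 2.89 in control, with differences of 1.93 and 1.30. Here mtYAP was the higher of the lines, by 0.63. The mean takes in a probe set that stayed at 1.75 in mtYAP, 1.87 in YAP and 1.76 in control. The brightest of the 3 read 6.72 in mtYAP, 5.84 in YAP and 3.78 in control, a difference of 2.94 and 2.06, and the remaining probe set read 5.98, 4.84 and 3.12 on the same arrays. Serpini2, the other gene of the clade, lay between 2.68 and 2.73 on all arrays.

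**Figure D4:**
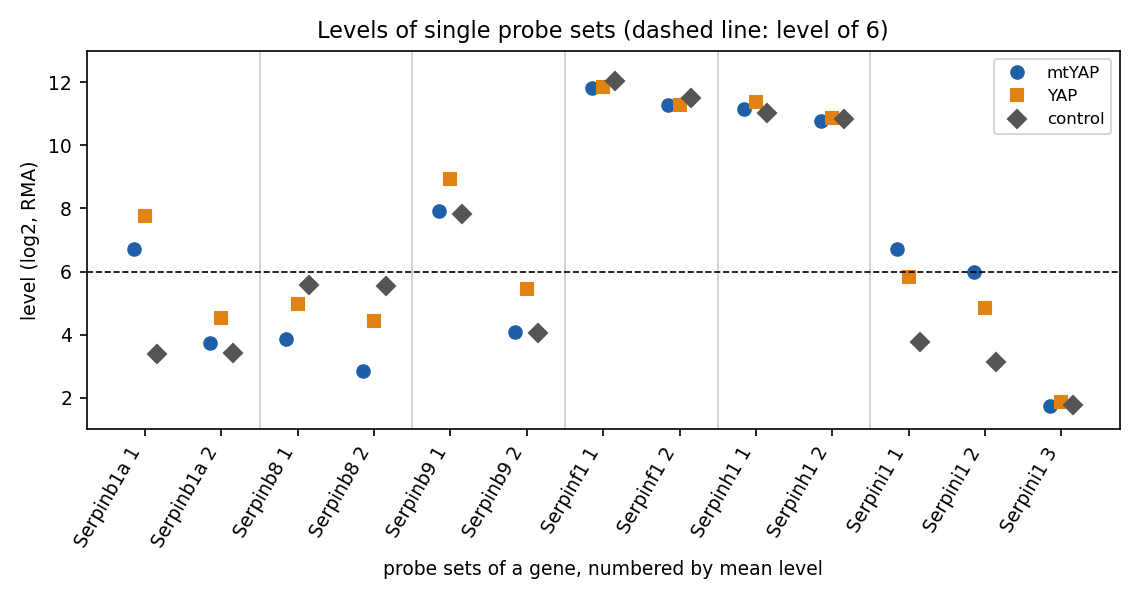
Log2 level (vertical axis) in mtYAP (blue circles), YAP (orange squares) and control (grey diamonds) of each probe set of the named serpin genes that are read by several, numbered by mean level within a gene (horizontal axis). The dashed line marks a level of 6. Probe sets of Serpinb8 and Serpinb9 keep 1 order of the arrays, those of Serpinb1a differ in the size of the difference, and the third of Serpini1 lies between 1.75 and 1.87 on all 3 arrays.

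The genes of clades F and H stayed close to control. Serpinh1, the HSP47 chaperone that binds procollagen in the endoplasmic reticulum, had a level of 10.96 in mtYAP, 11.115 in YAP and 10.93 in control, a difference of 0.03 and 0.185. Serpinf1, which encodes the secreted pigment epithelium-derived factor and like Serpinh1 is not known as a protease inhibitor, had a level of 11.545 in mtYAP, 11.565 in YAP and 11.78 in control. Both genes were clearly measured on every array and both of their probe sets lay within 0.33 of control. Serpinf2, the plasmin inhibitor antiplasmin, had differences of 0.23 in mtYAP and 0.35 in YAP at levels below 6.

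No gene of clade A was above control by more than 1. Serpina3n, an acute-phase inhibitor related to human antichymotrypsin, was the serpin gene below control by more than 1 in YAP. Its level was 4.62 in mtYAP, 4.21 in YAP and 5.42 in control, with differences of −0.80 and −1.21, all below 6. The other 13 genes had levels between 1.83 and 4.6 and lay within −0.40 and 0.33 of control in both lines. They include the antitrypsin genes Serpina1b and Serpina1c and the corticosteroid-binding globulin Serpina6. The hepatocyte markers stayed at or below 3.86 on every array. Among the clades with a single gene, Serpinc1 (antithrombin) and Serpind1 (heparin cofactor) lay within −0.28 and 0.08 of control. Serping1, the C1 inhibitor, had a level of 3.18 in mtYAP, 3.20 in YAP and 2.59 in control.

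Genes that work with serpins were looked up in 4 lists, whose counts past 1 are to be read against 3.77% of all genes above control and 4.06% below it in mtYAP, and 1.36% above and 1.26% below in YAP. Among the 7129 genes that reached a level of 6, 546 were above and 586 below in mtYAP, and 194 and 164 in YAP. Of 28 genes of plasminogen activation and clotting, 4 were above control by more than 1 and 4 below in mtYAP, and 2 were above and none below in YAP, and 13 of the 28 reached a level of 6. Htra1, a secreted serine protease, had a level of 8.315 in mtYAP, 8.025 in YAP and 6.245 in control, which is 2.07 and 1.78 above control. Plaur, the receptor of urokinase, stood at 1.61 and 0.69. Plat, the tissue plasminogen activator that Serpini1 inhibits, had a level of 4.71 in mtYAP, 6.175 in YAP and 6.315 in control, a difference of −1.605 and −0.14. Lrp1, an endocytic receptor that clears complexes of proteases and serpins, stood at −1.605 and −0.76. Also below in mtYAP were F3 (tissue factor, −1.42) and Pros1 (protein S, −1.23). Also above were the serine protease Prss23 (1.22) and the receptor Vldlr (1.105), which with Htra1 was above in YAP (1.145). Unlike Htra1, Vldlr was below 6 on every array, with 4.97 in mtYAP, 5.01 in YAP and 3.865 in control.

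Of 25 genes for granzymes and their partner perforin (Prf1), leukocyte serine proteases, cathepsins and caspases, none was above control by more than 1 in either line. In mtYAP 3 were below, where 4.06% of all genes were, and in YAP 1 was, where 1.26% were. Casp1, an inflammatory caspase, was below in both lines (−1.83 in mtYAP, −1.55 in YAP) and Ctss, cathepsin S, in mtYAP (−1.06), all at levels below 6. A level of 6 was reached by 5 of them. Ctsb, cathepsin B, was lower than control by more than 1 in mtYAP (−1.37, with −0.63 in YAP). Casp4, another inflammatory caspase, had −0.95 in mtYAP and −0.13 in YAP. Casp8, the initiator caspase of death receptors, had −0.93 and −0.42, and Ctsz, cathepsin Z, −0.43 and −0.28. Granzyme B (Gzmb), the protease that Serpinb9 inhibits, had a level of 3.50 in mtYAP, 3.20 in YAP and 3.20 in control.

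Of 31 protease inhibitors outside the family, 2 were above and 2 below control by more than 1 in mtYAP, and 1 above and 1 below in YAP. A level of 6 was reached by 7 of the 31, and 3.77% of all genes were above and 4.06% below in mtYAP. Timp3, an inhibitor of metalloproteinases, had a level of 10.52 in mtYAP, 9.12 in YAP and 8.56 in control. Its difference was 1.96 in mtYAP and 0.56 in YAP. Cst3, the secreted cystatin C, had −1.90 in mtYAP and −0.86 in YAP. Reck, a membrane-anchored inhibitor of metalloproteinases, had −1.11 and 0.14, and Cstb, the intracellular cystatin B, −0.715 and −0.425. The remaining genes past 1 lay below 6 on all arrays. They were Itih2 in mtYAP (1.80), and Fetub (1.17) and Timp4 (−1.125) in YAP.

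Of 21 genes that fold and modify procollagen beside Serpinh1, 2 were above control by more than 1 and 6 below in mtYAP, and 1 was above and none below in YAP. Of the 21, 15 reached a level of 6, and 4.06% of all genes were below in mtYAP. The median of the list was −0.46 in mtYAP and −0.245 in YAP. Pcolce, which enhances procollagen cleavage, had −1.41 in mtYAP and −0.475 in YAP, and the prolyl 3-hydroxylases P3h3 and P3h1 at −1.35 and −1.065 in mtYAP and −0.90 and −0.685 in YAP. Plod2, a lysyl hydroxylase, went the other way at 1.315 and 1.165, and P4ha2, a prolyl 4-hydroxylase, was above in mtYAP (1.04). P4ha3, Bmp1 and Fkbp14, all below 6, were the others below in mtYAP. Serpinh1 stayed within 0.185 of control on the same arrays.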

How the data were processed

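RNA of 3 conditions was measured on Affymetrix Mouse 430 2.0 arrays, 1 per condition. The deposited values are log2 levels per probe set, which the authors obtained by robust multiarray analysis (RMA), a method that subtracts background and normalizes the arrays together. RMA and the package affy are listed in the submitters' processing notes without versions. The number of arrays limits the precision.

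Of 45037 probe sets, 34945 have 1 symbol in the platform annotation, 932 several and 9160 none, and the first kind was used. Probe sets of a gene were averaged and levels subtracted. Entrez identifiers of all 40 serpin genes were found in the RefSeq table of GRCm38.p6, used for names, chromosomes and order. Serpin genes were named where they reached a level of 6 on at least 1 array or differed by more than 1 in a comparison, and so were, of the genes of each list at a level of 6 or more on at least 1 array, up to 4 with the largest difference from control in mtYAP. Serpinb9d, Gzmb, the other serpins without a difference the genes beside the clusters and the further list genes past 1 were chosen after seeing their values. Protein sequences were not analysed here. The members and lists were chosen with earlier results of these data known. Counting was tested on simulated data. Alternatives were the brightest probe set, any probe set, no _s, _x or _a probe sets, probe sets of several genes kept, limits of 0.65 and 1.5, levels of 5, 6 and 7, and removal of the median or of a loess (span 0.3). Python 3.11.15, pandas 2.3.3, statsmodels 0.14.6 and Biopython 1.88 were used.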

Additional observations from a re-analysis of the deposited data

Results flagged for a closer look

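Serpinb6e differed from control by 0.27 in mtYAP and by −0.24 in YAP, so the lines went opposite ways. The difference between them was not tested, and both values are small. Both come from the same probe set, which is of a kind that can also read related transcripts.

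A probe set left out of the comparisons because it names 4 genes, Serpinb9e, Serpinb9f, Serpinb9g and Serpinb9h, had a level of 4.89 in mtYAP, 5.0 in YAP and 3.0 in control. It was 1.89 above control in mtYAP and 2.0 in YAP. Which of the 4 genes it reads was not tested.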

How the results depend on the processing

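No paired analysis was possible because each condition had 1 array. With a level of at least 6 on 1 array required, 2 serpin genes were above control by more than 1 in mtYAP and 4 in YAP. With that level, 0 were below in either line, and 1 was lower in mtYAP than in YAP. Among the 7129 genes that reached 6, 546 were above in mtYAP and 194 in YAP. The counts above control are a description only. Serpinb1a, Serpinb9 and Serpinb9b among them reached 6 only on arrays where they were above control. A limit of 0.65 gave 2 genes below control in mtYAP, 2 in YAP and 6 lower in mtYAP than in YAP, and a limit of 1.5 gave 5 above control in YAP, 0 below in YAP and 0 lower in mtYAP than in YAP. Where any probe set could pass, Serpinb8 made 2 genes below control in YAP, and Serpini1 made 1 gene higher in mtYAP than in YAP. A level of 5 was reached by 11 genes. Over the genes that reached 6, the median in YAP was 1.15, against 0.06 over all 40, a description only for the same reason. The other 43 counts under these alternatives stayed within 1.5 times the values given above, and no difference of a named gene past 1 changed sign. Among these counts, 9 genes were above control in mtYAP and 11 in YAP with probe sets of several genes kept. The added genes were Serpinb9e, Serpinb9f and Serpinb9h, all read by the same probe set. Without _s, _x and _a probe sets, Serpinb6a, Serpinb6e and Serpinh1 had no value. Removal of the median or of the loess moved no named gene across the limit of 1. Differences of genes below 6 are limited by signal near the background.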

Other observations

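Probe sets that name several antitrypsin genes were also left out of the comparisons. The probe set of Serpina1a and Serpina1d read 2.11 in mtYAP, 2.19 in YAP and 2.28 in control, and that of Serpina1b, Serpina1c and Serpina1e read 2.49 in mtYAP, 2.58 in YAP and 2.68 in control.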
